A study of Mus musculus with 15 samples.

Results

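The wild-type (WT) mouse retina at postnatal day 2 (P2) was described from its RNA alone, as levels and ranks of genes, cell type markers and transcripts. Its members were the 5 samples that the labels place in the WT group, of 15 in the series. WT retinas came from CD-1 mice with both copies of Neurog2 floxed (Neurog2CKO/CKO) and no Cre, so that the conditional allele was present and not recombined. The other 10 samples carried Chx10Cre with 1 floxed copy of Neurog2 (HET, 5 samples) or with both floxed (MUT, 5 samples), a Cre that acts in retinal progenitor cells. All 3 groups share the strain, the tissue and the age. Levels are given in FPKM, fragments scaled to transcript length and to mapped fragments, as 1 value for the 5 WT samples together.

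At this age the mouse retina still holds dividing progenitor cells, which can give rise to rods, late amacrine cells, bipolar cells and Müller glia. Ganglion cells, horizontal cells and cones have been born earlier. Photoreceptors at this stage are young cells that have not yet built outer segments, the stacked membranes in which light is detected.

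Neurog2, a proneural transcription factor of progenitor cells and the target of the conditional allele, lies on chromosome 3 at 127633135 to 127635631 (mm10). In the authors' deposited tables it stood at 59.2 and 59.5 FPKM in WT, 42.4 FPKM in HET and 10.6 FPKM in MUT. The order of the 3 groups follows their labels.

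Because the authors' values are pooled, no SD between samples, no depth and no interval can be given, and it is not stated that the samples are separate animals. The WT value of a transcript in the 2 tables that hold it differed by a median of 0.534%, but the same samples entered both. A wider measure is the error implied by the authors' log2 fold change and test statistic, which also covers the group WT was compared with. Its median on the log2 scale was 1.43 for transcripts of 1 to 10 FPKM, 0.42 at 10 to 100 FPKM and 0.33 at 100 to 1000 FPKM. Levels of genes are therefore called apart here only where their log2 difference is more than 2 times the combined implied error of their highest transcripts. FPKM divides by transcript length, so that levels of different genes are compared per length.

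The tables listed 13627 protein-coding genes in WT, with a median of 12.9 FPKM. Of these, 12219 (89.7%) stood at 1 FPKM or more, 7730 at 10 or more, 858 at 100 or more and 62 at 1000 or more. The 10 highest coding genes held 6.06% of the summed coding FPKM, the 100 highest held 25.5% and the 1000 highest held 57.7%. The top 100 was mostly translation machinery, with 64 genes of cytosolic ribosomal proteins, beside 8 genes of the mitochondrial genome and 3 histone genes. A gene that is not listed has no value here and cannot be read as silent. Tuba1a and Tubb3, tubulins of young neurons, are not listed, nor are 5 of the 13 mitochondrial coding genes.

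The highest listed gene of any class was mt-Co2, a subunit of cytochrome c oxidase, at 6985 FPKM. Among mitochondrial genes, mt-Co1, mt-Co3, mt-Atp6, mt-Atp8 and mt-Nd4l are not listed and could not be ranked. Among ribosomal protein genes Rps29 led with 3309 FPKM and Rpl13a followed with 3115 FPKM, and the median of all 83 listed was 932 FPKM. Of the remaining coding genes the highest by summed FPKM was Ppia, the abundant folding enzyme cyclophilin A, at 3011 FPKM. Its highest transcript, Ppia-203 at 1312 FPKM, is 355 nt long and annotated with a retained intron. The protein-coding Ppia-202 stood at 448 FPKM. By the highest transcript alone, Ckb at 2109 and Tpt1 at 1608 FPKM stood above Ppia. Tpt1, a growth-related protein, stood at 2811 FPKM. Ckb, the brain form of creatine kinase, stood at 2109 FPKM and Ptma, a chromatin-associated acidic protein, at 2057 FPKM. The implied log2 error was 0.93 for mt-Co2, 0.36 for Rps29, 1.16 for Ppia and 0.67 for Tpt1.

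Genes below them were picked after their values were seen, by known role. Chromatin proteins of the high mobility group included Hmgn2 at 1575 FPKM and Hmgb1 at 1128 FPKM. Regulators of the cytoskeleton in motile and growing cells included Tmsb10 at 1382, Tmsb4x at 1186, Stmn1 at 1144 and Cfl1 at 1009 FPKM. Glycolysis genes included Pkm at 1273, Ldha at 1048 and Eno1 at 1034 FPKM. These 3 are enzymes of the last steps from glucose to lactate.

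By class, ribosomal protein genes held 15.5% of all FPKM, small RNA genes 3.94%, mitochondrial genes 3.86%, long non-coding genes 1.22%, histone genes 1.05% and pseudogenes 1.01%. The remaining coding genes held 73.2%. Weighting each transcript by its length, which is closer to the share of fragments, gave 89.9% for the remaining coding genes, 5.93% for ribosomal protein genes and 0.242% for small RNA genes. The length weighting was chosen after seeing the data. The small RNA genes had a median length of 134 nt, and FPKM is scaled up for short transcripts.

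**Figure D1:**
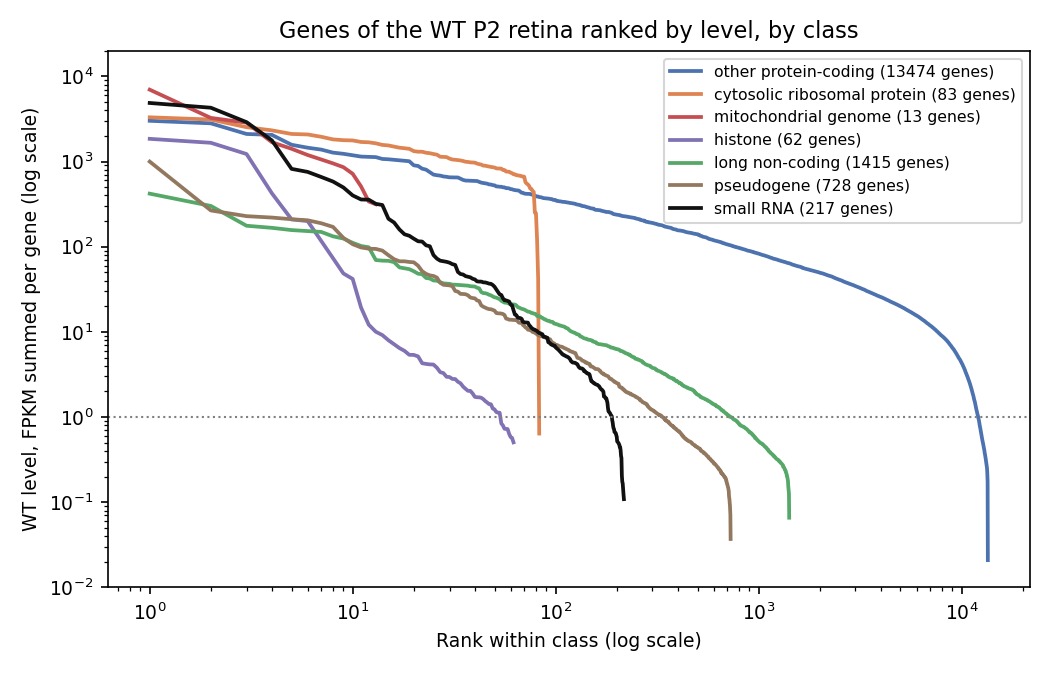
WT level in FPKM summed per gene (vertical log axis) against the rank of a gene within its class (horizontal log axis), 1 line for each class of gene. The 83 ribosomal protein genes form a plateau near their median of 932 FPKM and then drop, the 13 mitochondrial genes all stand above 300 FPKM, and the small RNA line starts at 4874 FPKM and falls below 10 FPKM within its first 100 genes; the dotted line marks 1 FPKM.

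Small RNA genes took 3 of the 10 highest places of all classes, and the sequences of a pair that differs and of a pair that is nearly identical are shown. Rny3 stood at 4874 FPKM and Rny1 at 2902 FPKM. They encode Y RNAs, small structured RNAs that bind the Ro protein. They lie close together on chromosome 6, Rny3 at 47781624 to 47781725 on the forward strand and Rny1 at 47788069 to 47788180 on the reverse strand (mm10). The capitals below mark the longest run that both share, 12 bases.
Rny3: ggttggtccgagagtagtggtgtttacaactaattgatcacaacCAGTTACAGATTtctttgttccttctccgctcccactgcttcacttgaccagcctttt
Rny1: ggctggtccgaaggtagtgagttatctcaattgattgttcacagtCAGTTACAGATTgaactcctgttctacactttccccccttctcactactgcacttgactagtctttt
The RNAs are 102 and 112 nt long.

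Gm24265 and Gm24407, annotated as small nuclear RNAs, are neighbours on chromosome 5 at 115489459 to 115489599 and 115490254 to 115490394 (mm10, forward strand). Both are 141 nt long and differ at 2 bases, G88A and C99A, counted from the 5′ end with the base of Gm24265 first. The capitals mark these bases.
Gm24265: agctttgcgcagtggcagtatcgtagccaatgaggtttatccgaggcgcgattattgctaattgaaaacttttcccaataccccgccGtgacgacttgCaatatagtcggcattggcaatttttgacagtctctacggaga
Gm24407: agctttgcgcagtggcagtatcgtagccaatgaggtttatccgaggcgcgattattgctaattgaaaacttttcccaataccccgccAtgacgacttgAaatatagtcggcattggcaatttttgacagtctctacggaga
Their levels of 821 and 659 FPKM are uncertain as a split of a sum of 1480 FPKM.

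Gm23134 is annotated as a miRNA hairpin of 87 nt and stood at 4287 FPKM, with an implied log2 error of 9.34. It lies wholly inside an exon of Nnat on the opposite strand. Nnat encodes neuronatin, a small membrane protein of developing neurons, and stood at 1454 FPKM. In all, 63 of the 217 listed small RNA genes, and 16 of the 35 miRNA hairpins, lay wholly inside an exon of another gene. The sources used here do not state whether libraries were stranded, so reads of such genes and of their hosts cannot be told apart. Among the 15 highest small RNA genes the implied log2 error ran from 0.00379 for Snord104 to 24.4 for Mir5125, so no order among them is read.

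Among long non-coding genes Gas5, host of a group of small nucleolar RNAs, stood highest at 420 FPKM. H19, an imprinted RNA of fetal tissues, followed at 301 FPKM. Rian at 176 and Meg3 at 157 FPKM come from 1 imprinted cluster on chromosome 12. Miat, known in the retina as Gomafu or RNCR2, stood at 167 FPKM. Six3os1, transcribed opposite the eye field gene Six3, stood at 153 FPKM. Cct6a at 149, 2410006H16Rik at 132, Gm11175 at 125 and 1110038B12Rik at 111 FPKM complete the 10 highest. The class of Cct6a rests on its annotated gene type alone, so its place here does not make it a non-coding gene. Of these Gm11175 lies wholly inside an exon of Jund on the opposite strand.

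Marker genes were read as 29 lists with 473 distinct genes, of which 411 are listed. Of 393 neighbouring pairs in the order of levels within a list, 21 were apart by more than 2 times their combined implied error, and these pairs fell in 14 of the 28 lists that hold a pair. A marker's level in a whole retina joins the number of cells and the RNA per cell, which cannot be told apart. Percentiles below are the share of listed coding genes at or below a level.

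**Figure D2:**
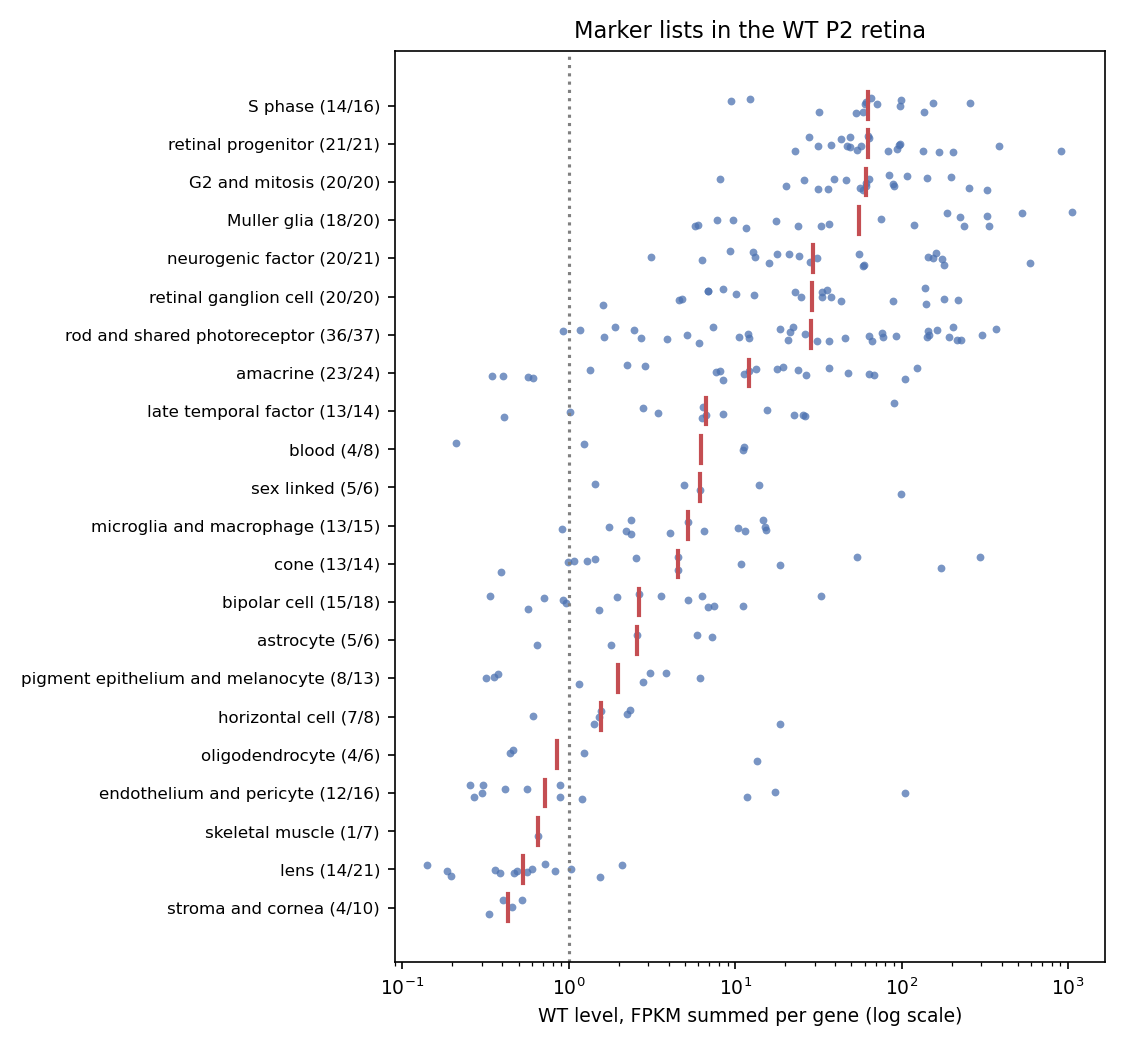
WT level in FPKM (horizontal log axis) of every listed member of 22 marker lists, 1 point for each gene, with the list's median as a red bar; the numbers after a name are members listed of members in all, and vertical scatter within a row carries no meaning. Cell cycle, progenitor and Müller glia lists sit at the top with medians from 55.9 to 63.3 FPKM. The medians of the lens, muscle, stroma, oligodendrocyte, and endothelium and pericyte lists lie left of the dotted line at 1 FPKM, and the muscle list has 1 listed gene.

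Progenitor genes were all present. Each of the 21 members stood above 20 FPKM, with a median of 63.2 FPKM, at percentile 88.8 of coding genes. Ccnd1, the D-type cyclin that drives retinal progenitors into the cell cycle, led with 903 FPKM (implied log2 error 0.65). Pax6, a master regulator of eye development, stood at 383 FPKM. Hes5, a Notch target that keeps cells undifferentiated, stood at 203 FPKM. The homeobox genes Rax at 134, Lhx2 at 98.3 and Six3 at 94.4 FPKM followed, all required for the eye field or for progenitor growth. Id1, an inhibitor of basic helix-loop-helix factors, stood at 96.2 FPKM and Sfrp2, a secreted Wnt modulator, was lowest at 23.0 FPKM. No neighbouring pair in this list was apart by more than 2 times its combined error. Raxos1, an antisense gene that shares 48.9% of the Rax transcript, is listed at 47.5 FPKM, so the level of Rax is uncertain without strand.

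Factors of the temporal order of progenitors were uneven. Of 14 members 12 reached 1 FPKM and 5 reached 10 FPKM, with a median of 6.69 FPKM. Sox8, a Sox factor of late progenitors and Müller glia, led with 90.6 FPKM. It stood apart from Nfix at 26.5 FPKM by 1.78 on the log2 scale, against a combined error of 0.41. Nfix, Nfib at 15.6 and Nfia at 8.47 FPKM are nuclear factor I genes that mark late progenitors. Casz1, a zinc finger gene of mid to late progenitors, stood at 25.6 FPKM and Sox9 at 22.5 FPKM. Lin28b, a translation regulator of early progenitors, was lowest at 0.408 FPKM. Ikzf1, which promotes early fates, is not listed.

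Of 21 neurogenic genes 20 are listed and 17 reached 10 FPKM, with a median of 29.6 FPKM. Hes6, which opposes Hes1 and promotes neuronal differentiation, stood at 591 FPKM. It was apart from the next member, Sox4 at 181 FPKM, by 1.71 (combined error 0.52, log2). Further down came Neurod4 at 160, Btg2 at 155 and Neurod1 at 144 FPKM. Neurod1 and Neurod4 act in photoreceptor, amacrine and bipolar precursors. Btg2 restrains proliferation in cells about to differentiate. A step of 1.28 (combined error 0.44, log2) separated Neurod1 from Neurog2 at 59.3 FPKM, which sat beside Mfng, a modifier of Notch, at 58.9 FPKM. Nhlh1, a factor of newborn neurons, was lowest at 3.11 FPKM, and Bhlhe23 is not listed. For Sox4, 54.6% of its transcript is shared with a long non-coding gene, Gm26735, on the opposite strand.

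Genes of both cycle phases had high medians. All 14 listed S phase genes passed 1 FPKM, with a median of 63.3 FPKM. Pcna, the sliding clamp of DNA polymerase, led with 256 FPKM. Dut at 154 and Mcm7 at 136 FPKM followed, for nucleotide supply and the replicative helicase. Cdc6, which loads that helicase, was lowest at 9.40 FPKM. Cdt1 and Gins2 are not listed. Of the G2 and mitosis list all 20 members were listed, with a median of 61.1 FPKM. Hmgb2 stood at 325, the mitotic kinase Cdk1 at 256, Top2a at 199, Ube2c at 142 and the cyclin Ccna2 at 107 FPKM. Kif20b was lowest at 8.11 FPKM.

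Promoters of these genes are shown because mitotic genes are known to share CCAAT boxes, bound by NF-Y, and a cell cycle homology element, TTTGAA. Both were searched on either strand in the 250 bases before each gene start (RefSeq, GRCm38.p6). CCAAT was found in 13 of 17 windows of 17 G2 and mitosis genes (76.5%) and TTTGAA in 8 (47.1%), all 8 with both. Among 12059 windows of coding genes at 1 FPKM or more the shares were 35.4% for CCAAT, 10.0% for TTTGAA and 3.81% for both. CCAAT was found in 14 of 19 windows of neurogenic genes (73.7%) and 10 of 16 of S phase genes (62.5%), where TTTGAA was in 1 and 2. The share with CCAAT was 41.2% in progenitor, 38.9% in rod and shared and 30.8% in cone genes. Capitals mark both motifs or their reverse complements, ATTGG and TTCAAA, which do not overlap in these windows.
Hmgb2: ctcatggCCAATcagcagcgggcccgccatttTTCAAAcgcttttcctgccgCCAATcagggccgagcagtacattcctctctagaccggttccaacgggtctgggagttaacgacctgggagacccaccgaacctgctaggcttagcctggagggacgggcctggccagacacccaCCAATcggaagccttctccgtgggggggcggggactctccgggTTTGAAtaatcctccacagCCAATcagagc
Cdk1: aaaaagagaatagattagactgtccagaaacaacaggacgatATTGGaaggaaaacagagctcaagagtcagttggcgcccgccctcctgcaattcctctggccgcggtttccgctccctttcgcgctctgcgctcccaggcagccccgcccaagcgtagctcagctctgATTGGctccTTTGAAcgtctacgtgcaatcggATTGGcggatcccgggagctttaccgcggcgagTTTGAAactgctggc
These are chr8:57511593-57511842 on the forward strand and chr10:69352913-69353162 on the reverse strand (GRCm38.p6). The windows are a description of letters, and binding was not measured.

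Photoreceptor genes spanned a wide range of levels. Of 37 rod and shared genes 35 reached 1 FPKM and 26 reached 10 FPKM, with a median of 28.7 FPKM. Transcription factors had a median of 66.1 FPKM over 9 genes, phototransduction genes 22.2 FPKM over 13 listed and the remaining genes 12.1 FPKM over 14. Otx2, which commits cells to the photoreceptor and bipolar lineages, stood at 305 FPKM, and Crx, its target and partner, at 217 FPKM. Nr2e3 at 164 and Nrl at 146 FPKM, which set rod against cone identity, were close to each other. Nrl and Nr2e3 did not differ beyond their error.

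Among genes of the light response Pdc (phosducin, which binds transducin βγ) stood at 204 FPKM and Sag (rod arrestin) at 193 FPKM. Gnb1, a transducin β subunit that many other cells use too, led the list with 372 FPKM. Unc119, a lipid-binding chaperone of transducin, stood at 228 FPKM. Rom1, a disc rim protein, stood at 144 FPKM, and Rbp3, the retinoid carrier of the space around photoreceptors, at 143 FPKM. Recoverin (Rcvrn), a calcium sensor of the light response, stood at 22.2 FPKM. The lowest were the channel subunit Cnga1 at 3.87, rod transducin α (Gnat1) at 2.73, the guanylate cyclase Gucy2e at 2.46 and the phosphodiesterase subunit Pde6a at 0.926 FPKM. Its partner subunits Pde6g and Pde6b stood at 77.3 and 20.9 FPKM. Slc24a1 is not listed.

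Cone genes also spanned a wide range. Of 14 members 11 reached 1 FPKM, 5 reached 10 FPKM, and the median was 4.53 FPKM. The cone transducin subunits Gngt2 at 294 and Gnb3 at 172 FPKM were highest, and the short-wave opsin Opn1sw stood at 53.8 FPKM. Gnat2, cone transducin α, stood at 18.5 FPKM, and the nuclear receptors Rxrg and Thrb, which pattern cone opsins, at 10.8 and 4.53 FPKM. Cone arrestin Arr3 at 0.985 and Pde6h at 0.389 FPKM were under 1 FPKM. Opn1mw, the middle-wave opsin, is not listed.

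**Figure D3:**
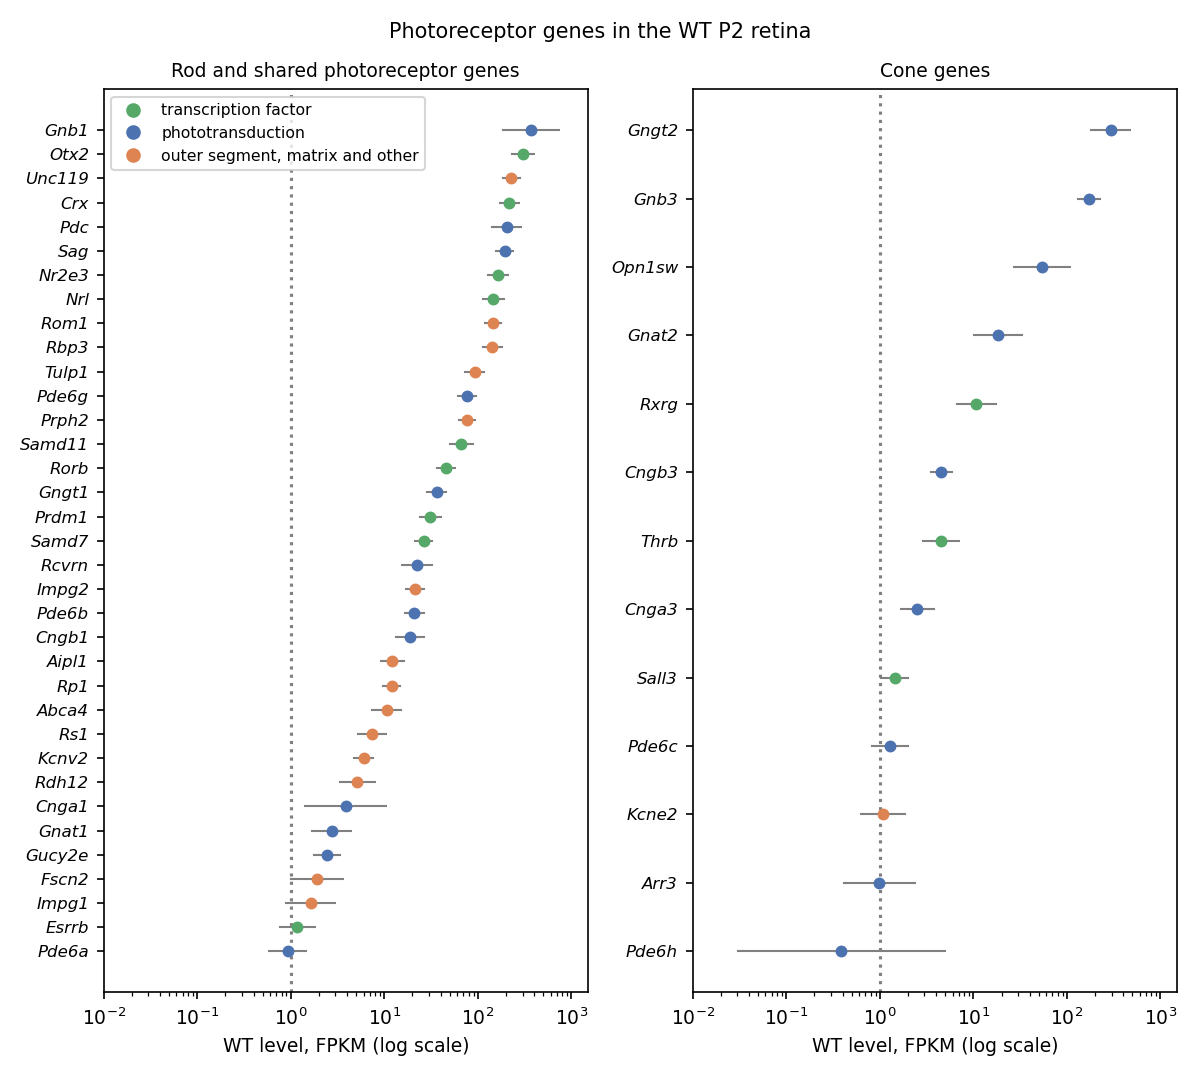
WT level in FPKM (horizontal log axis) of rod and shared genes (left) and cone genes (right), ordered by level and coloured by role, with the genes that are reported here; grey bars extend 1 implied error to each side, and the dotted line marks 1 FPKM. Most neighbouring bars overlap, those of Gnb3 and Opn1sw and of Rxrg and Cngb3 do not, and the ends are far apart, from Gnb1 at 372 to Pde6a at 0.926 FPKM among rod and shared genes and from Gngt2 at 294 to Pde6h at 0.389 FPKM among cone genes.

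Promoters of rod genes are shown for the letters TAATCC, the core known to be bound by Crx and Otx2. It was found on either strand in 13 of 36 windows of 29 rod and shared genes (36.1%) and in 2 of 13 windows of cone genes. The share was 4.97% in coding genes at 1 FPKM or more, 1 of 17 windows in progenitor genes and 0 of 19 in neurogenic genes. Crx itself holds 2 matches, whose outermost bases begin 94 and 21 bases before the start, and Rbp3 holds 1 match, which begins 69 bases before it. Capitals mark the reverse complement, GGATTA.
Crx: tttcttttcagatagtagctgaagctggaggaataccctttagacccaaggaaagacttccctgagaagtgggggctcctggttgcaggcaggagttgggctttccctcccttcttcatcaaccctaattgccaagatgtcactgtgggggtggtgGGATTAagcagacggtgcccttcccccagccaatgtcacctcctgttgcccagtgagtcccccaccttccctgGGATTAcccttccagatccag
Rbp3: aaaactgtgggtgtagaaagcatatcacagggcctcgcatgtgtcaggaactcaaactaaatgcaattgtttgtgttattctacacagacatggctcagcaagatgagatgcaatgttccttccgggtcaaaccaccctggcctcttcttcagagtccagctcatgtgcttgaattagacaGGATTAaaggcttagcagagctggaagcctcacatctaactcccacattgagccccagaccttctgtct
These are chr7:15879956-15880205 on the reverse strand and chr14:33953753-33954002 on the forward strand (GRCm38.p6).

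Genes of the ganglion cell list, a cell type born before this age, were all listed. Whole-tissue levels cannot assign them to ganglion cells alone. The median of the list was 28.9 FPKM, and 14 of 20 members reached 10 FPKM. Sncg, γ-synuclein of ganglion cell axons, led with 217 FPKM. The growth cone genes Stmn2 at 140 and Gap43 at 139 FPKM followed Sox4, which is also on the neurogenic list. The neurofilament Nefl stood at 89.2 FPKM and the surface protein Thy1 at 43.5 FPKM. Among transcription factors Pou4f1 stood at 24.7, Isl1 at 22.7 and Pou4f2 at 8.45 FPKM. Nefh, the neurofilament of mature axons, was lowest at 1.60 FPKM.

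Amacrine genes were uneven. Of 24 members 19 reached 1 FPKM and 13 reached 10 FPKM, with a median of 12.2 FPKM. Calb2, the calcium buffer calretinin, stood at 124 FPKM, which ganglion cells also contain. Meis2 stood at 105 FPKM, the transcription factor Tfap2b at 63.9, the peptide Npy at 47.4 and Prdm13 at 36.4 FPKM. The lowest listed members were the cholinergic genes Chat at 0.606 and Slc18a3 at 0.572, Neurod6 at 0.403 and the dopaminergic enzyme Th at 0.348 FPKM. Slc5a7, the choline transporter, is not listed.

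Horizontal and bipolar cell genes were the lowest of the retinal lists. Among 8 horizontal cell genes Prox1 stood at 18.6 FPKM and was apart from Onecut1 at 2.32 FPKM by 3.00 (combined error 0.83, log2). Prox1 is also known in progenitors, bipolar and amacrine cells. Onecut3 was lowest at 0.613 FPKM and Gja10 is not listed. Of 18 bipolar genes 10 reached 1 FPKM, with a median of 2.63 FPKM. The transcription factors Irx5 at 32.6, Irx6 at 11.2 and Lhx4 at 7.48 FPKM were highest. Trpm1 at 0.570 FPKM is the channel of the ON bipolar response, and its partners Grm6 and Nyx are not listed, nor is Vsx1. Scgn was lowest at 0.336 FPKM.

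Müller glia genes had a median of 55.9 FPKM, near that of the progenitor list. Dbi, a binding protein for acyl-CoA, stood at 1064 and Dapl1 at 526 FPKM. Dkk3 stood at 336, Crym at 327, Vim at 236, glutamine synthetase (Glul) at 226 and Apoe at 188 FPKM. Rlbp1, the retinal carrier of glia, stood at 119 FPKM and the glutamate transporter Slc1a3 at 75.1 FPKM. Many of these genes are also known in progenitor cells, and whole-tissue levels cannot assign them. Clu stood at 7.80 FPKM and Kcnj10, a potassium channel of mature glia, was lowest at 5.77 FPKM, and Aqp4 and Abca8a are not listed.

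Markers of microglia, vessels and astrocytes were read apart from the lists of retinal neurons and Müller glia. Microglia genes had a median of 5.19 FPKM, with Tyrobp highest at 15.3 and Tmem119 lowest at 0.907 FPKM. Of 16 vessel genes 12 are listed, and 4 reached 1 FPKM. Kdr, the receptor of Vegfa known in endothelium and also in retinal progenitors, stood at 105 FPKM. Egfl7 followed at 17.4 and Cldn5 at 11.8 FPKM, whereas Pecam1 at 0.271, Cdh5 at 0.416 and Tie1 at 0.255 FPKM were near the lowest listed coding genes. Kdr was apart from Egfl7 by 2.59 (combined error 0.79, log2). The astrocyte gene Gfap stood at 7.22 FPKM.

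Pigment epithelium, lens, muscle and stroma genes were read as a check of the dissection. Pigment epithelium genes reached at most 6.13 FPKM (Pmel), and Rpe65 is not listed. Lens genes reached at most 2.09 FPKM (Crybb3), and no listed member of the muscle and stroma lists reached 1 FPKM. Listed were 8 of 13 pigment epithelium, 14 of 21 lens, 1 of 7 muscle and 4 of 10 stroma genes. The others have no value here, so the check covers the listed genes only. The haemoglobins Hbb-bs and Hba-a1 stood at 11.3 and 11.2 FPKM. Mbp, known for myelin, stood at 13.6 FPKM, beside Mog at 0.461 and Mag at 0.443 FPKM, also of myelin. Xist stood at 98.5 FPKM and the Y-linked genes Eif2s3y at 13.8, Ddx3y at 6.14, Kdm5d at 4.96 and Uty at 1.43 FPKM. The implied log2 error was 3.36 for Xist. For Kdm5d the ratio was 6248, which is too large to be read as an error of a level. No transcript of Ddx3y or Uty is listed in both tables. Of 6 listed Eif2s3y transcripts, 1 is in the table of WT against MUT, at 0.357 FPKM. The highest, Eif2s3y-201 at 10.7 FPKM, is not listed there. Of genes that respond to handling, Jun stood at 50.5, Dnajb1 at 33.5 and Ier2 at 27.4 FPKM, and Fos at 0.592 and Hspa1a at 0.510 FPKM.

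Signalling genes were read by role. All 27 Notch pathway genes passed 1 FPKM, with a median of 18.0 FPKM. Of the receptors Notch1 stood at 63.4 FPKM and Notch3 at 2.94 FPKM. Of the ligands Dll1 stood at 54.3, Dll3 at 31.1, Dll4 at 17.7 and Jag1, the lowest of the pathway, at 1.02 FPKM. Lfng, a glycosyltransferase that tunes the receptors, stood at 73.7 FPKM. The target Hes5 was apart from Lfng by 1.46 (combined error 0.41, log2). In the Hedgehog pathway the ligand Shh stood at 1.05 FPKM, its receptor Ptch1 at 19.3, the transducer Smo at 41.5 and the effectors Gli3 at 16.7 and Gli1 at 16.5 FPKM. The coreceptors Gas1 at 52.3 and Cdon at 32.0 FPKM were high, and Boc at 0.909 FPKM was lowest. Ihh is not listed.

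Of 24 secreted growth factors and modulators 19 reached 1 FPKM. The heparin-binding factors Mdk at 370 and Ptn at 113 FPKM and the Wnt modulator Dkk3 at 336 FPKM led, and Dkk3 was apart from Ptn by 1.58 (combined error 0.46, log2). Vegfa, the ligand of Kdr, stood at 86.8 FPKM, Igf2 at 79.9 and Fgf15 at 63.2 FPKM. For Igf2, 97.0% of its transcript is shared with another annotated coding gene, Gm49394. Tgfb1 was lowest at 0.677 FPKM, and Fgf8, Bmp4, Bdnf and Ntf3 are not listed.

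Genes of transmitter release had a higher median than those of transmitter receptors. Of 25 release genes 24 reached 1 FPKM, with a median of 20.4 FPKM. The vesicle protein Syp stood at 142 FPKM, the complexin Cplx2 at 121, Vamp2 at 117 and Snap25 at 106 FPKM, and Syt2 was lowest at 0.317 FPKM. Gm14703, an antisense gene that shares 33.8% of the Syp transcript, is listed at 51.6 FPKM, so the level of Syp is uncertain without strand. Of 29 receptor genes 19 reached 1 FPKM, with a median of 6.37 FPKM. The scaffold Gphn stood at 17.4 FPKM. The nicotinic subunits Chrna4 and Chrna3 lay between Gphn and Chrnb2, which stood at 11.9 FPKM. Glra3 was lowest at 0.261 FPKM, and Grin2a, Grm6, Gabrr1 and Glra1 are not listed. Of the clock genes Arntl stood at 54.7 FPKM, apart from Nr1d2 at 22.1 FPKM by 1.31 (combined error 0.40, log2), and melanopsin (Opn4), the pigment of light-sensitive ganglion cells, stood at 4.21 FPKM.

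Of 41 gene families, with the α-tubulins left out, the highest listed member was apart from the next in 17. It held 75% or more of the family's summed FPKM in 9 and under 50% in 15. Pax6 held 98.9% of the Pax family, of which 5 of 9 genes are not listed. Ccnd1 held 97.0% of the D cyclins, 41.4 times the level of Ccnd3 at 21.8 FPKM. Families of sugar use are also listed in part, with 2 of 3 hexokinases, 2 of 3 aldolases and 2 of 3 lactate dehydrogenases, and shares are over the listed genes. Slc2a1 held 95.3% of the glucose transporters, Aldoa 97.5% of the aldolases and Hk1 90.4% of the hexokinases. Ldha held 89.9% of the lactate dehydrogenases, with Ldhb at 118 FPKM. The RNA-binding Msi1 held 81.7% of the Musashi genes, and Lhx2 84.4% of the Lhx genes.

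Other families were shared. Neurod4 and Neurod1 stood at 160 and 144 FPKM, Zic2 and Zic1 at 22.4 and 21.2 FPKM, Id1 and Id3 at 96.2 and 83.1 FPKM and Tcf3 and Tcf4 at 102 and 90.1 FPKM, and none of these pairs was apart beyond its error. Otx2 and Crx split their family 58.4% to 41.5%, with Otx1 at 0.282 FPKM. The RNA-binding Ptbp1, typical of dividing cells, stood at 174 FPKM and the neuronal Ptbp2 at 124 FPKM. Among DNA methyltransferases the maintenance enzyme Dnmt1 stood at 58.9 and Dnmt3a at 34.8 FPKM. Of the TET genes, which oxidise methylcytosine, Tet3 held 66.0% at 25.5 FPKM and was apart from Tet2 at 6.78 FPKM.

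**Figure D4:**
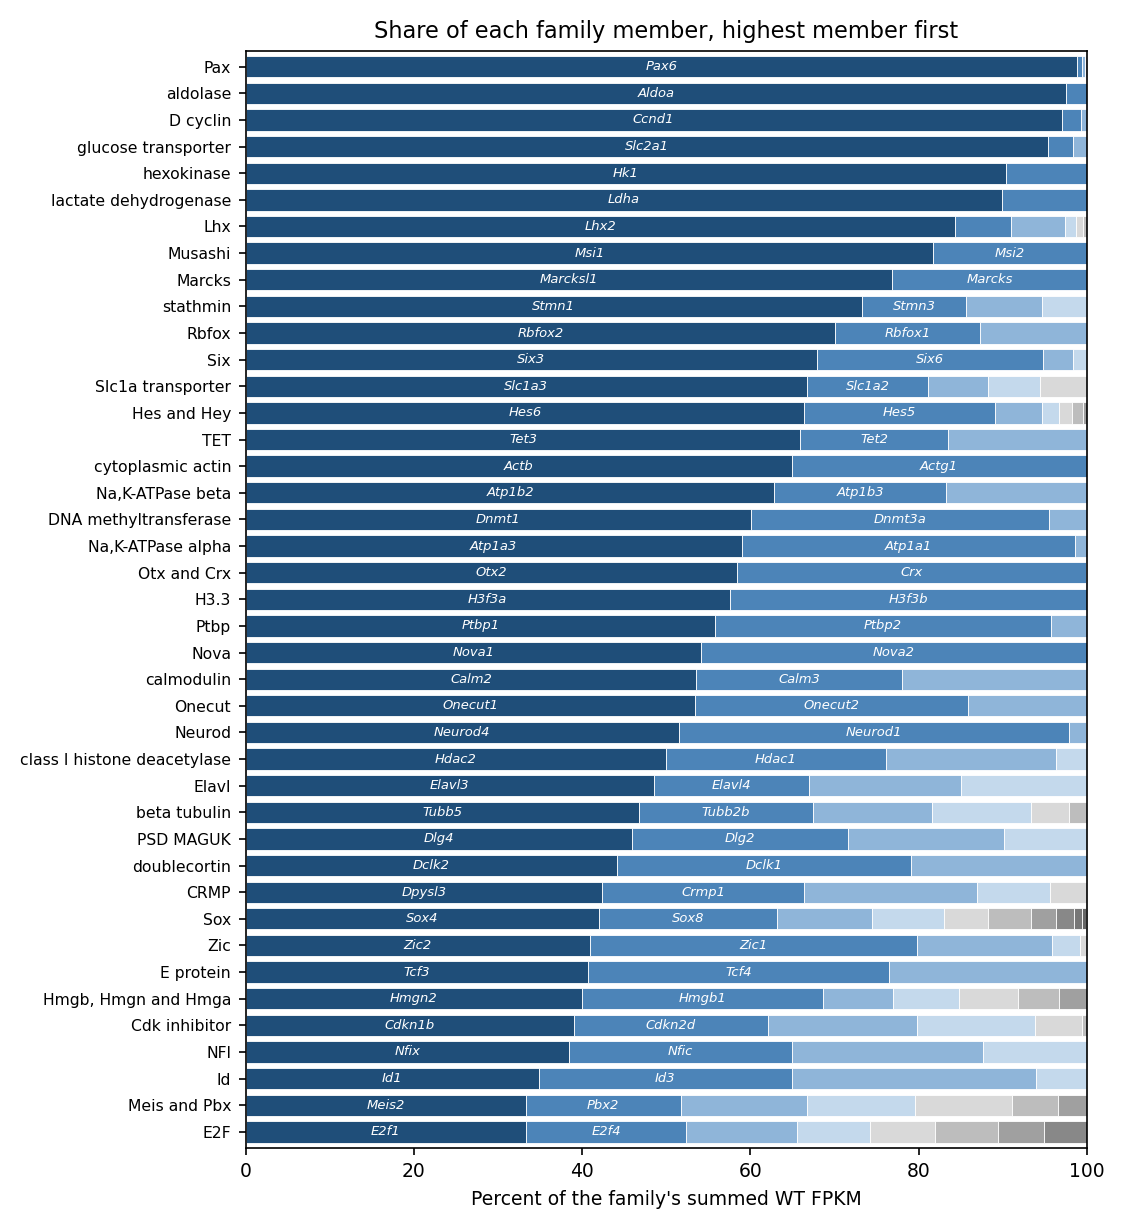
Percent of each family's summed WT FPKM held by its listed members, highest first from the left, for 41 families (α-tubulins are left out because 3 of their 5 genes are not listed); the names of the first and second member are printed where the segment is wide enough. Families at the top rest on a single gene, such as Pax6 at 98.9%, and those at the bottom are spread, such as the E2F family, in which E2f1 holds 33.3%.

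Most coding genes were listed with several transcripts. Of 12219 coding genes at 1 FPKM or more, 8315 had 2 or more listed transcripts, with a median of 4 and at most 25, in Pax6. The highest transcript held a median of 66.3% of a gene's FPKM. It held 90% or more in 16.9% of these genes and under 50% in 24.5%. It was annotated as protein-coding in 7672 genes (92.3%), as a processed transcript in 214, as a target of nonsense-mediated decay in 206 and with a retained intron in 183. The highest transcripts had a median length of 2847 nt where they were protein-coding and 814 nt where they retained an intron. With transcripts weighted by length the highest held a median of 77.0%, it held 90% or more in 30.1% of genes, and it was the same transcript in 88.4%.

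**Figure D5:**
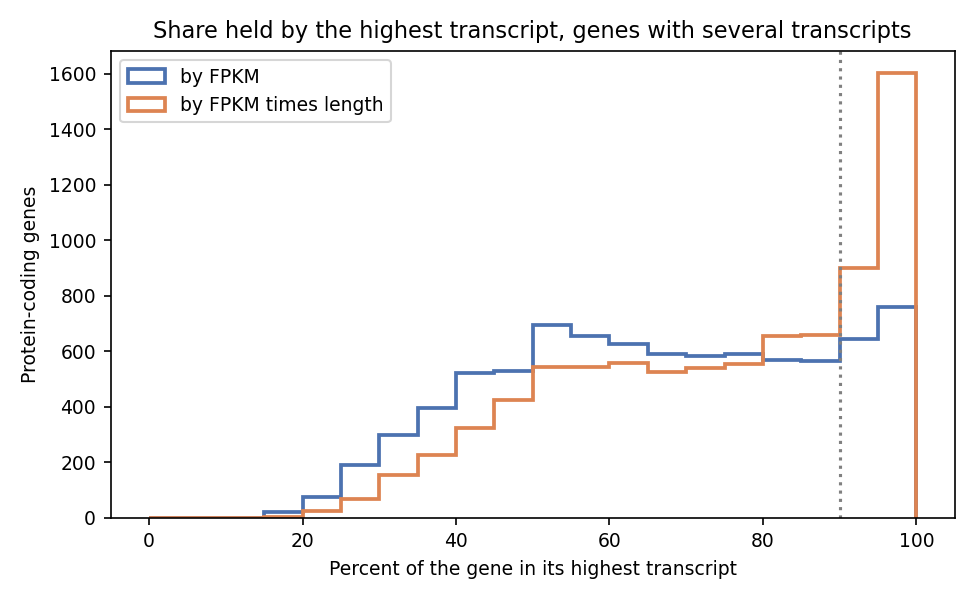
Number of protein-coding genes (vertical axis) by the percent of the gene in its highest transcript (horizontal axis, in steps of 5 percentage points), for genes with 2 or more listed transcripts, by FPKM and by FPKM times length. The curve by length is shifted to the right of the curve by FPKM, with 30.1% against 16.9% of genes past the dotted line at 90%.

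Single genes show what these shares hide. Pkm-201 held 92.0% of Pkm and Mapt-204 held 91.3% of Mapt, the microtubule protein tau. Ccnd1-201 held 99.2% of Ccnd1 and Notch1-201 96.9% of Notch1. Snap25, which has a pair of alternative forms, was split between Snap25-202 at 58.4 FPKM and Snap25-201 at 48.0 FPKM, closer than their errors. In Pax6 the highest transcript was Pax6-210, a processed transcript of 983 nt at 129 FPKM, and the coding Pax6-204 stood at 78.3 FPKM. Their implied log2 errors were 0.75 and 0.61, and they were not apart by more than 2 times their combined error. Weighted by length the order turned, and Pax6-204 led with 31.5%. In a list of 51 genes known for isoforms or for retinal roles, 41 had 2 or more listed transcripts. Among these the highest held 90% or more in 7 and under 50% in 14, and was not protein-coding in Pax6 and Meis2. Weighted by length, the highest was protein-coding in both Pax6 and Meis2.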

How the data were processed

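Total RNA of P2 mouse retinas was sequenced in bulk. Per the submitters' processing notes, Bowtie2, Cufflinks, Cuffdiff and mm10 were used; versions, strand, RNA selection and depth are not given in the sources used here. Per the file headers, the authors deposited Cuffdiff tables by transcript with an FPKM per group, pooled over its replicates. They also deposited a log2 fold change and Cuffdiff's test statistic, a score. Values per sample were not analysed here.

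The WT FPKM values of a transcript were averaged over the 2 tables that hold WT (45633 transcripts) and summed per gene symbol (16089 symbols). 99 rows whose symbol had become a date were restored by gene identifier. Classes and lengths came from GENCODE M21 (lengths matched for 98.8% of transcripts). A gene was called detected at 1 FPKM. No test was made, since each group is 1 pooled value. The implied error is the absolute ratio of the deposited log2 fold change to the test statistic of a gene's highest transcript, the larger of both tables. This ratio can be extreme, as at 0.00379 for Snord104 and 6248 for Kdm5d, and is then not a usable error. Sums per gene, the share of the highest transcript and the count of detected genes were tested on simulated data. Python 3.11.15 and pandas 2.3.3 were used.

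Named genes were the 20 highest coding genes and 10 highest of any class, as examples, the 10 highest long non-coding genes, the up to 8 highest, the lowest and the unlisted or undetected members of each list, and the first and second members of families. Rom1, Rbp3, Rcvrn, Cnga1, Gnat1, Gucy2e, Pde6b, Pde6g, Pou4f1, Pou4f2, Isl1, Dll3, Dll4, Notch3, Shh, Slc1a3, Clu, Opn4, Otx1, Lars2, small RNA genes below the 10 highest, remaining coding genes below the 20 highest, imprinted genes and genes that overlap others were chosen after their values were seen. Results that need some genes are left out here. Members and lists were chosen with earlier results of these data known. Alternatives covered the table used, the transcripts kept, the gene value, the scale and the threshold.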

Additional observations from a re-analysis of the deposited data

How the results depend on the processing

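Of 877 values recomputed under the alternatives, 810 stayed within 1.5 times the reported value, a tolerance used because no replicate spread is known. Of the 67 others, 32 came from rescaling FPKM to TPM, where 1 FPKM is 1.74 TPM and ranks do not change; that scale put 6 lens genes and 1 muscle gene at 1 or more. At 0.5 FPKM 7 vessel, 7 lens, 1 muscle and 1 stroma gene were detected; at 2 FPKM 3 horizontal cell, 1 oligodendrocyte and 1 lens gene. With a gene's highest transcript in place of the sum, 1 oligodendrocyte gene was detected, and the highest member changed in 3 families (E proteins, Meis and Pbx, Ptbp). From the table of WT against MUT alone, or from transcripts in both tables, 2 of the sex-linked genes were detected in place of 5. With transcripts of 300 nt or more, small RNA genes held 0.0920% of FPKM and genes of unmatched class 0.0963%. Weighted by length, an alternative chosen after seeing the data, ribosomal protein genes held 5.93%, mitochondrial genes 1.75%, histone genes 0.553%, pseudogenes 0.374%, small RNA genes 0.242% and unmatched genes 0.114%, and 30.1% of genes had a transcript of 90% or more. The causes of these changes were not tested.

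No paired analysis was possible because the authors' values are pooled over the replicates of a group. For the same reason no replicate was left out. Depth is unknown, implied errors are wide under 10 FPKM, and 13.9% of detected coding genes share 10% or more of their highest transcript with an exon of another gene.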

Other observations

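A list of imprinted genes, expressed from 1 parental copy, was put together after high values of some were seen. Of 24 such genes 23 are listed and 15 reached 10 FPKM, with a median of 28.3 FPKM. Nnat stood at 1454 FPKM, Gnas, which encodes the stimulatory G protein α subunit, at 487, Ndn (necdin) at 185 and the zinc finger factor Plagl1 at 97.6 FPKM. The neighbours H19 and Igf2 stood at 301 and 79.9 FPKM. Rian and Meg3 stood at 176 and 157 FPKM and Dlk1, from the same cluster on chromosome 12, at 1.26 FPKM. Magel2 was lowest at 1.25 FPKM.

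Lars2, the mitochondrial leucyl-tRNA synthetase, stood at 750 FPKM from a single listed transcript of 3894 nt (implied log2 error 0.77). The 16 other mitochondrial synthetase genes ranged from 0.679 to 22.7 FPKM with a median of 11.6 FPKM. The level of Lars2 was 64.9 times that median. RNA selection is not stated, and whether these fragments come from the mRNA of the synthetase was not tested. Fabp7, a fatty acid-binding protein of progenitors and glia, stood at 684 FPKM and Cdk4, the kinase partner of Ccnd1, at 662 FPKM. The highest transcript of Cdk4 by FPKM, at 206 FPKM, is annotated with a retained intron, is 468 nt long and held 31.2% of the gene. The next, a protein-coding transcript of 950 nt, stood at 155 FPKM. Their implied log2 errors were 0.92 and 0.71, and they were not apart by more than 2 times their combined error. Weighted by length, the protein-coding transcript stood above the one with a retained intron.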
